A study of Mus musculus with 40 samples.

Results

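Markers of tubular injury and repair were followed in the kidney that remained after removal of the other one. The set was given by name and holds 10 genes: Havcr1, Lcn2, Krt18, Krt20, Sox9, Vcam1, Clu, Spp1, Vim and Timp1. They are 10 of the 28467 genes in the bulk table and of the 32285 genes in the nucleus table, and all 10 were found in both. The question put to them was whether kidney growth after nephrectomy carries the marker pattern of injured tubules.

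All samples were right kidneys of male C57BL/6 mice aged 8 to 12 weeks. The left kidney was taken out (unilateral nephrectomy, UNx) or the same operation was done without removal (sham), under isoflurane with buprenorphine in both groups. A cross-section of the kidney gave 36 bulk RNA-seq libraries, from 6 sham and 6 UNx mice each at 24, 48 and 72 h. Nuclei of 4 further mice, 2 sham and 2 UNx, were sequenced at 24 h. No injured kidney was among the samples, so the markers have no positive reference here. The labels put all 24 h bulk libraries in batch 1 and all 48 and 72 h libraries in batch 2, so the 24 h time and its batch cannot be told apart, while sham and UNx of each time share a batch. The first nucleus sample of each group is labelled batch 3 and the second batch 4.

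After ischaemic or toxic damage, proximal tubule cells that survive lose part of their transport program and switch on a set of injury genes. HAVCR1 (KIM-1) is a surface receptor by which such cells take up debris, and LCN2 (NGAL) is a secreted iron-siderophore carrier measured in urine as a sign of damage. SOX9 marks tubule cells that divide and repair, whereas VCAM1 marks those in which repair fails, and keratins, vimentin, clusterin, osteopontin and TIMP1 follow the change in cell shape, matrix and survival signalling.

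Depth lay between 14.9 and 24.1 M estimated counts per bulk library (M for 1e6). Levels are given in counts per M scaled with TMM factors (CPM). Mitochondrially encoded genes took a median of 26.1% of counts in the 48 h UNx libraries against 14.7% in the 48 h shams, and 48 h UNx replicate 6 alone stood at 15.2%. A profile score over 139 pseudogenes is higher the more a library resembles the 24 h shams. It was built to run from the mean of the 48 and 72 h shams to that of the 24 h shams, so the sham averages are fixed in advance. The score was 0.948 to 1.04 in the 24 h shams and at most 0.0822 in the 48 h shams. It was 0.722 to 0.923 in the 24 h UNx libraries, 0.714 to 0.797 in 48 h UNx replicates 1 to 5 and 0.0209 in replicate 6. At 48 h the profile thus went with the group in every library but UNx replicate 6. In the others, profile and nephrectomy cannot be told apart. Summed proximal tubule markers were 24016 to 39032 CPM, as a check of the tissue. The nuclei were 16500, with a median of 8297 UMIs (unique molecule counts) each, and 18 barcodes occurred in more than 1 mouse. Each bulk library carries its own mouse number in the labels.

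Promoter sequence is shown for Spp1 and Timp1. Spp1 was the only marker called when each bulk time was fitted alone in edgeR, with all its libraries and no block or covariate. Timp1 joins Havcr1 and Clu when 1 library is left out below. Each run is the 250 bases before the start in RefSeq (build GRCm38.p6, plus strand), chr5:104434861-104435110 for Spp1 and chrX:20869916-20870165 for Timp1, with matches to TATAA or CCAAT on either strand in capitals.
Spp1: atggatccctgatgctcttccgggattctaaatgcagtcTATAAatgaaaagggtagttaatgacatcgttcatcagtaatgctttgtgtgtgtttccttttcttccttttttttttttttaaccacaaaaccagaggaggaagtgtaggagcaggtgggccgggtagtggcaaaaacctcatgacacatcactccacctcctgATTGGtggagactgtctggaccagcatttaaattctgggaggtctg
Timp1: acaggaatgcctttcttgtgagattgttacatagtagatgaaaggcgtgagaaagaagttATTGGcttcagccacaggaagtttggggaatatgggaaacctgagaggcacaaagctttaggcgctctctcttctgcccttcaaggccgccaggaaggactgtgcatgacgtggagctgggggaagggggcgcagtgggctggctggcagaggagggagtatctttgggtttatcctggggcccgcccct
RefSeq windows were given for 7 of the 10 markers, 10 windows in all. The letters TATAA on either strand were in 6 of these windows and in 22.8% of all 32851 windows, and CCAAT was in 3 of them and in 33.8% of all. The AP-1 letters TGANTCA, the cyclic AMP element TGACGTCA, the STAT letters TTCNNNGAA and the E-box CACGTG were in none of the 10, against 6.75%, 1.55%, 7.02% and 6.02% of all windows. A match here is a run of letters, not a binding site.

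At 24 h none of the 8 markers that passed the filter on low counts was called (edgeR, Benjamini-Hochberg adjusted p under 0.05), where 27.3% of all 14104 genes tested were. Krt20 and Timp1 did not pass the filter. At 48 h 1 of 9 was called, Spp1, which was lower, against 32.9% of genes called in either direction and 16.0% called lower. At 72 h none of 9 was called, against 1.71% of genes. The unadjusted p was under 0.05 for 1 marker at 24 h, 3 at 48 h and 0 at 72 h, and sham and UNx libraries overlapped for every marker at every time, where 10.3%, 11.2% and 1.95% of genes had groups that did not overlap. The median log2 fold change of the tested markers was 0.17, -0.26 and -0.15 at 24, 48 and 72 h, beside 0.01, -0.04 and -0.00 over all genes. In whole kidney, fewer cells of a type and less RNA per cell cannot be told apart.

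**Figure D1:**
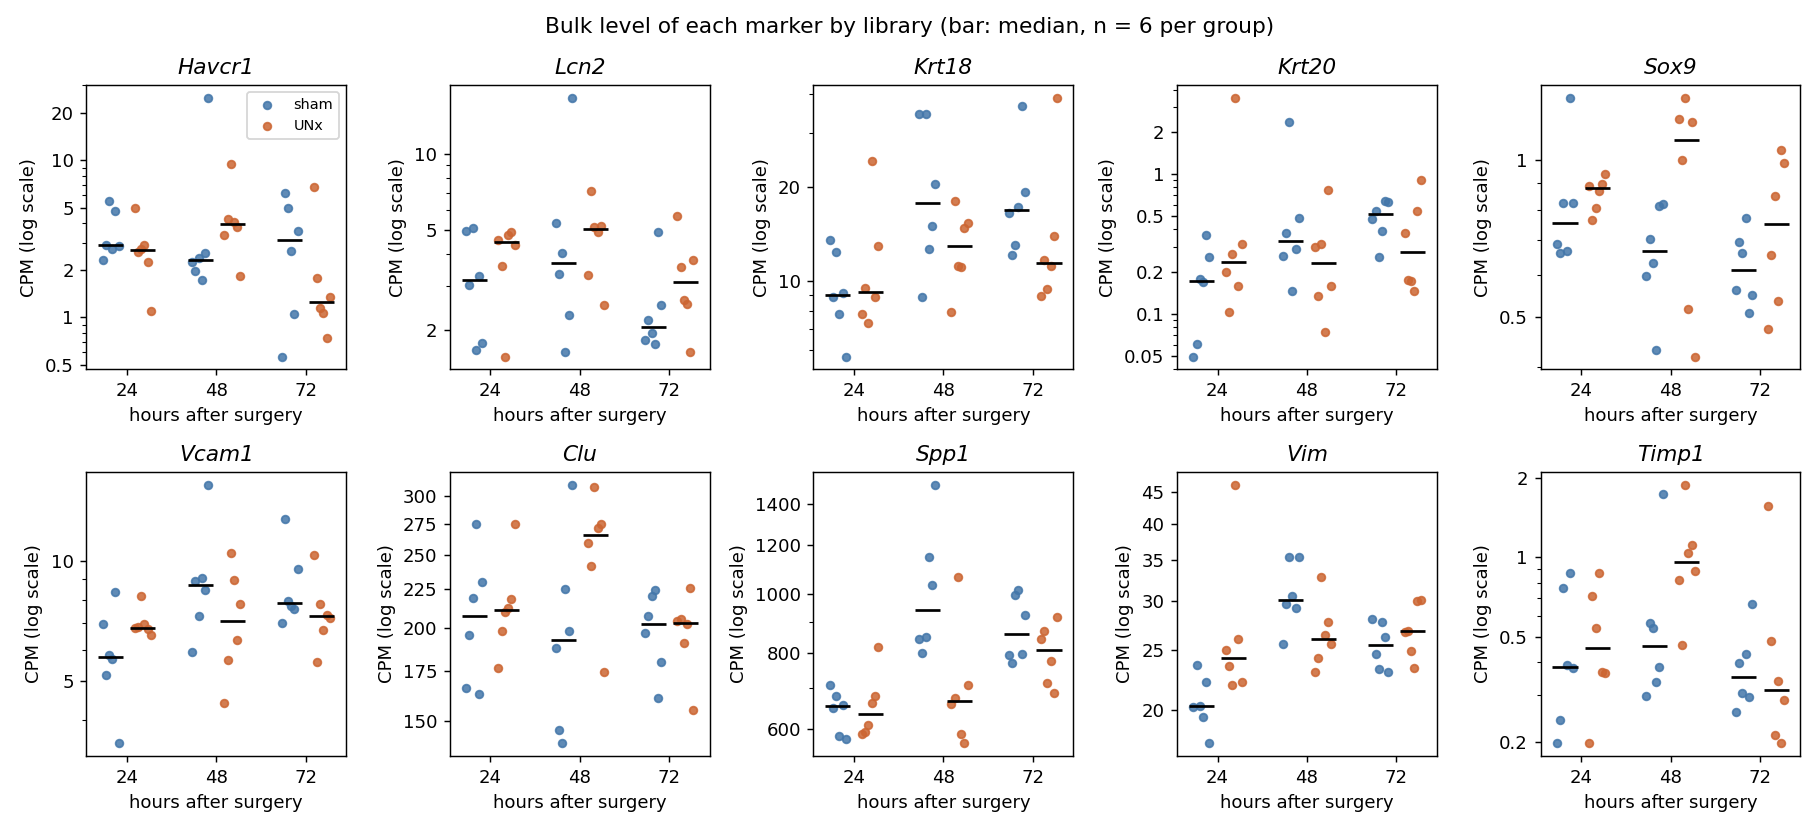
Level of each of the 10 markers in every bulk library (points, CPM on a log axis) by hours after surgery, for 6 sham (blue) and 6 UNx (orange) mice per time, with bars at the medians. Single libraries stand far above the rest of their group, such as the 48 h sham at 25.0 CPM of Havcr1 and the 24 h UNx library at 3.49 CPM of Krt20.

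Havcr1, the KIM-1 receptor of injured proximal tubule, did not separate the groups at any time. At 24 h its level ran from 2.32 CPM (median 2.88) to 5.53 in shams and from 1.10 (median 2.67) to 4.95 after UNx, which is -0.33 on the log2 scale (SE 0.29, adjusted p = 0.43). At 48 h shams ran from 1.73 (median 2.33) to 25.0 and UNx libraries from 1.84 (median 3.91) to 9.44, with a fold change of -0.44 on the log2 scale and a 95% interval from -1.86 to 0.99. The direction rested on 1 sham, replicate 6. The other 5 shams lay between 1.73 and 2.59 CPM, with a mean of 2.19 ± 0.341 (SD, n = 5), and 5 of the 6 UNx libraries were above all of them. Without that sham the log2 fold change turned to 1.01 (SE 0.32, adjusted p = 0.0342). UNx replicate 6, whose profile score was unlike that of the other 5, held 1.84 CPM, within the range of those 5 shams. With all shams kept, the log2 fold change was -1.71 with UNx replicate 6 as the only UNx library. It was -1.27 (SE 1.62) with the profile score as a covariate. At 72 h the range was 0.564 to 6.20 CPM (median 3.10) in shams and 0.744 to 6.78 (median 1.25) after UNx, a log2 fold change of -0.56 (95% interval -1.84 to 0.72). UNx replicate 1 held the 6.78 CPM and the other 5 were at or below 1.79. Without it the log2 fold change was -1.36 (SE 0.51, adjusted p = 0.239), where 0.852% of genes were called.

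Lcn2, the secreted NGAL protein, was no clearer. Its 24 h levels ran from 1.67 CPM (median 3.15) to 5.06 in shams and from 1.57 (median 4.44) to 4.90 after UNx. The 48 h shams ran from 1.63 (median 3.68) to 16.6, where replicate 6 was again the highest, and the UNx libraries from 2.52 (median 5.01) to 7.11. The 72 h shams ran from 1.76 (median 2.06) to 4.91 and the UNx libraries from 1.64 (median 3.09) to 5.64. Its log2 fold changes were 0.26 (95% interval -0.37 to 0.89), -0.26 (-1.27 to 0.75) and 0.37 (-0.29 to 1.04). Without 48 h sham replicate 6 the 48 h value was 0.47 (adjusted p = 0.259).

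Sham replicate 6 at 48 h held the highest level of its group for 8 of the 10 markers, all but Krt18 and Krt20. Among the UNx libraries of 48 h, replicate 3 held the highest level for 7 of 10, Clu, Havcr1, Sox9, Spp1, Timp1, Vcam1 and Vim. These libraries were also the highest of their groups in summed macrophage and monocyte markers (8 genes), at 126.3 CPM where the shams ranged from 77.1 and at 120.8 CPM where UNx libraries ranged from 76.3, and the part of such cells in the marker levels was not tested. At 72 h, UNx replicate 1 was the highest for Havcr1, Lcn2, Timp1 and Vcam1. Left out of the 48 h comparison, sham replicate 6 took Spp1 off the called list and put 3 markers on it, Havcr1, Clu and Timp1, all higher after UNx, where 28.3% of 14372 genes were called. This comparison without 1 library was planned for every library, but it was singled out after its values were seen.

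**Figure D2:**
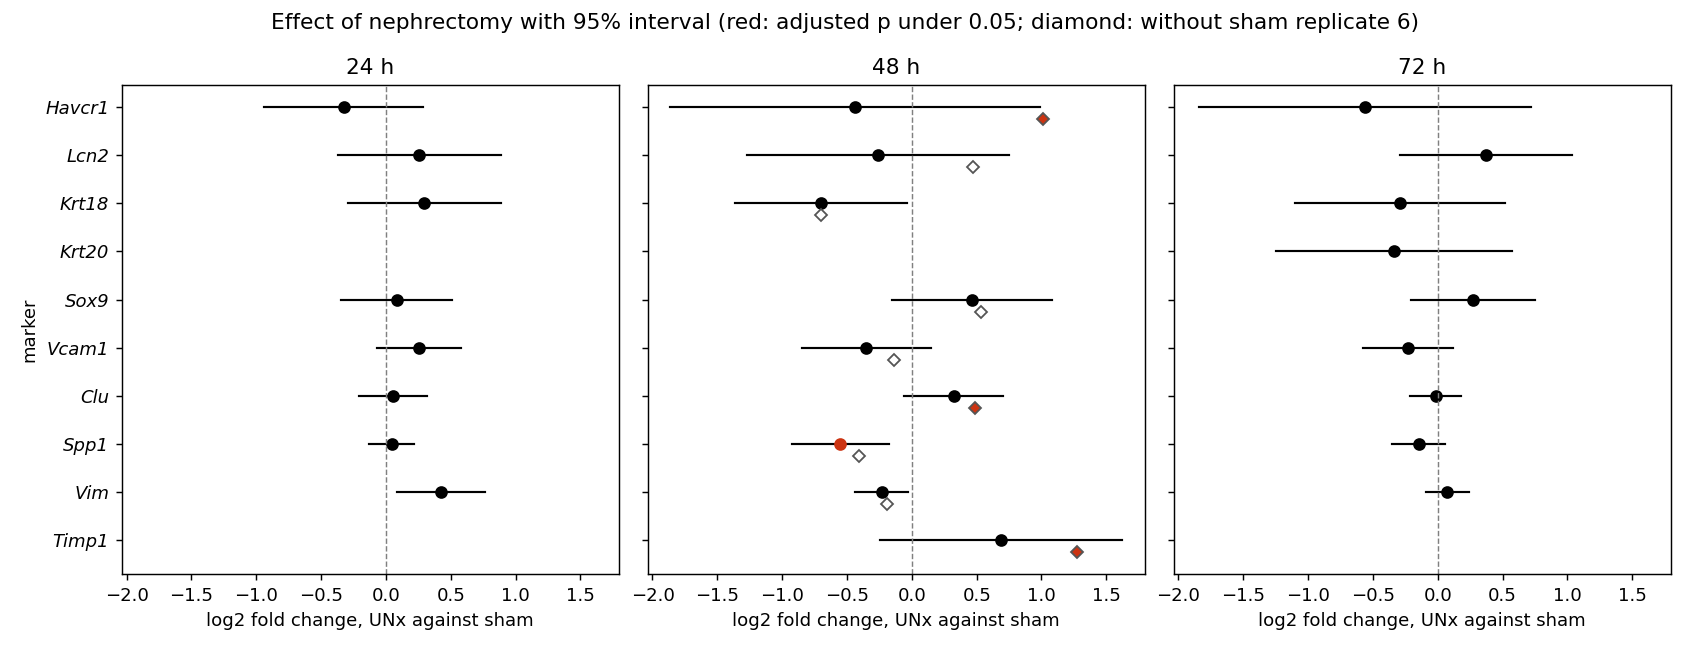
Log2 fold change of each marker, UNx against sham, with its 95% interval (lines) at 24, 48 and 72 h, and at 48 h also without sham replicate 6 (diamonds). Red marks an adjusted p under 0.05: Spp1 at -0.55 with all libraries, and Havcr1 (1.01), Clu (0.49) and Timp1 (1.27) without that sham; markers with no point did not pass the filter.

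Krt18 encodes the simple epithelial keratin that pairs with KRT8, and its level differed more between libraries than between groups. At 24 h it ran from 5.72 CPM (median 9.03) to 13.6 in shams and from 7.35 (median 9.20) to 24.2 after UNx. At 48 h the shams ran from 8.92 (median 17.8) to 34.3 and the UNx libraries from 7.93 (median 13.0) to 18.1, and at 72 h from 12.1 (median 16.9) to 36.5 and from 8.96 (median 11.4) to 38.8. The log2 fold changes were 0.30 (SE 0.28), -0.70 (SE 0.31, adjusted p = 0.0957) and -0.29 (SE 0.38). At 48 h Krt18 was called lower by edgeR without sham replicate 2 (-0.85, adjusted p = 0.0352). With each library left out, the 48 h value ran from -0.85 to -0.50 and the adjusted p from 0.0352 to 0.222. At 24 h the value was -0.04 without UNx replicate 4, which held the 24.2 CPM.

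Krt20, a keratin of intestinal and urothelial lining that appears in damaged tubule, lay under 1 CPM in all but 2 of the 36 libraries. The exceptions were 24 h UNx replicate 4 with 3.49 CPM and 48 h sham replicate 3 with 2.35 CPM. At 24 h the other UNx libraries held 0.102 to 0.313 CPM and the shams 0.0493 (median 0.172) to 0.365. The 48 h shams ran from 0.144 (median 0.332) to 2.35 CPM and the UNx libraries from 0.0740 (median 0.228) to 0.765 CPM. At 72 h shams ran from 0.255 (median 0.511) to 0.635 CPM and UNx libraries from 0.146 (median 0.277) to 0.902, which is -0.34 on the log2 scale (SE 0.42, adjusted p = 0.747).

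Both keratins were set beside 6 markers of urothelium, the lining of the renal pelvis, after their high libraries had been seen. The 2 libraries with high Krt20 held 76.4 and 86.4 CPM of summed urothelium markers, where 24 h UNx libraries started at 2.23 and 48 h shams at 9.82. They held 707.7 and 413.1 CPM of adipose tissue markers, against group medians of 28.3 and 68.9. On log2(CPM + 0.1), Krt18 and the urothelium sum had a Pearson r of 0.933 (permutation p = 2e-05, adjusted over 8 relations 5.33e-05) and a Spearman rho of 0.902 (permutation p = 0.00018, adjusted 0.00036) over the 12 libraries of batch 1. Over the 24 libraries of batch 2, r was 0.895 (permutation p = 1e-05, the smallest the resampling can give, adjusted 4e-05) and rho 0.911 (permutation p = 1e-05, adjusted 4e-05). Without the 2 libraries farthest from the median urothelium sum, r was 0.886 and 0.856. For Krt20, r was 0.575 in batch 1 (permutation p = 0.0536, adjusted 0.0613; rho 0.252, p = 0.429) and fell to -0.245 without the 2 farthest libraries, so it rests on them. In batch 2, r was 0.634 (permutation p = 0.00065, adjusted 0.00104), rho 0.570 (permutation p = 0.00424, adjusted 0.00565), and r 0.477 without the 2 farthest.

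**Figure D3:**
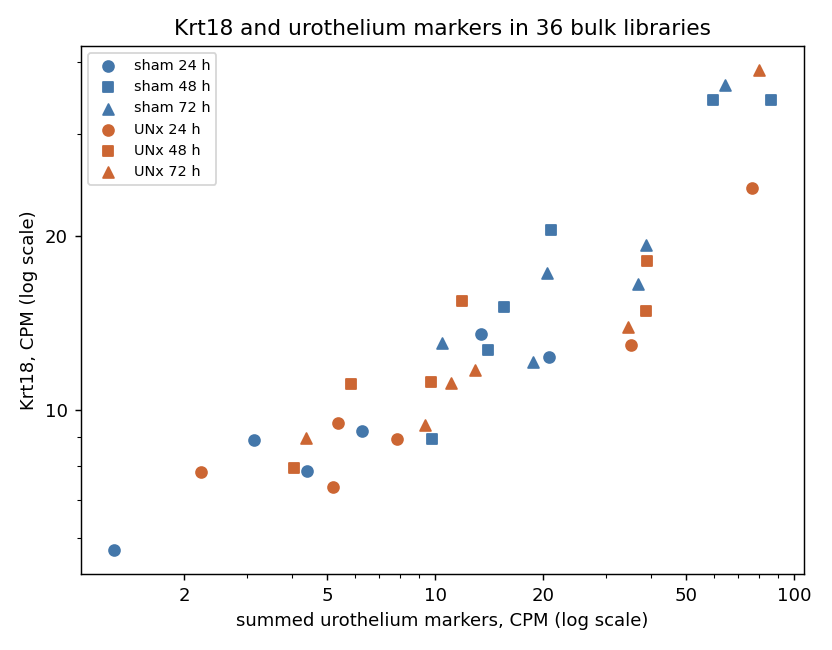
Krt18 (CPM) against the summed level of 6 urothelium markers (CPM) in the 36 bulk libraries, both axes logarithmic, with colour for group and shape for time. Sham and UNx libraries lie along the same band, and the 5 libraries with most Krt18, from 24.2 to 38.8 CPM, also hold the most urothelium marker signal.

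Sox9, the transcription factor of repairing tubule cells, was close to 1 CPM throughout. At 24 h it ran from 0.663 (median 0.757) to 1.31 CPM in shams and from 0.766 (median 0.881) to 0.940 after UNx. At 48 h shams ran from 0.433 (median 0.668) to 0.822 and UNx libraries from 0.419 (median 1.09) to 1.31, and at 72 h from 0.508 (median 0.613) to 0.773 and from 0.474 (median 0.753) to 1.04. At each time 4 of 6 UNx libraries lay above the sham mean. The log2 fold changes were 0.08 (95% interval -0.34 to 0.51), 0.47 (-0.15 to 1.08) and 0.27 (-0.21 to 0.75), so a log2 rise of 1 lay outside the interval at 24 and 72 h but not at 48 h.

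Vcam1, an adhesion receptor of activated endothelium and of tubule cells that fail to repair, was above the sham mean in 6 of 6 UNx libraries at 24 h. Its levels there were 3.50 to 8.39 CPM (median 5.75) in shams and 6.53 to 8.16 (median 6.81) after UNx, and the groups overlapped. It ran from 5.94 (median 8.68) to 15.5 CPM in shams and from 4.42 (median 7.07) to 10.4 after UNx at 48 h, and from 6.98 (median 7.84) to 12.7 and from 5.60 (median 7.28) to 10.3 at 72 h. The log2 fold changes were 0.26 (SE 0.15, adjusted p = 0.229), -0.35 (SE 0.23, adjusted p = 0.261) and -0.23 (SE 0.16, adjusted p = 0.500).

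Clu encodes clusterin, a secreted chaperone. At 24 h it ran from 163 CPM (median 207) to 275 in shams and from 177 (median 211) to 275 after UNx, a log2 fold change of 0.06 (95% interval -0.21 to 0.32). At 48 h shams ran from 140 (median 193) to 310, with replicate 6 at the top, and UNx libraries from 175 (median 265) to 308, with 5 of 6 above the sham mean. UNx replicate 6, whose profile score was unlike that of the other 5, held the 175. The log2 fold change at 48 h was 0.32 (SE 0.18, adjusted p = 0.176) with all libraries, 0.49 (SE 0.15, adjusted p = 0.0258) without sham replicate 6 and -0.22 with UNx replicate 6 as the only UNx library, where no gene was called. At 72 h shams ran from 161 (median 202) to 224 CPM and UNx libraries from 156 (median 203) to 226, a log2 fold change of -0.02 with a 95% interval from -0.21 to 0.18.

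Timp1, an inhibitor of matrix metalloproteinases, stayed under 2 CPM. At 24 h, where it did not pass the filter, it ran from 0.197 (median 0.386) to 0.875 CPM in shams and from 0.198 (median 0.454) to 0.872 after UNx. At 48 h shams ran from 0.299 (median 0.463) to 1.74 and UNx libraries from 0.465 (median 0.964) to 1.89. With all libraries the 48 h log2 fold change was 0.69 (SE 0.44, adjusted p = 0.238), and without sham replicate 6, which held the 1.74, it was 1.27 (SE 0.34, adjusted p = 0.0142). At 72 h it again missed the filter, and 5 of the 6 UNx libraries lay at or below 0.481 CPM with replicate 1 at 1.56, while shams ran from 0.260 (median 0.351) to 0.668.

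Vim encodes vimentin, the intermediate filament of mesenchymal and dedifferentiated epithelial cells. At 24 h it ran from 17.7 CPM (median 20.3) to 23.6 in shams and from 22.0 (median 24.3) to 46.2 after UNx, and 6 of 6 UNx libraries were above the sham mean. The log2 fold change was 0.43 (SE 0.16, adjusted p = 0.0573). The DESeq2 Wald test gave an adjusted p of 0.0319, where 28.8% of genes were called, and a fit of all 36 libraries gave 0.0150, where 25.0% were. The highest library was UNx replicate 4, the one with 76.4 CPM of urothelium markers, which also held 296.9 CPM of fibroblast markers against a group median of 158.1. Their part in its Vim was not tested, and without that library the log2 fold change was 0.22 (SE 0.08, adjusted p = 0.0563), where 23.3% of genes were called. At 48 h shams ran from 25.5 (median 30.1) to 35.4 and UNx libraries from 23.0 (median 26.0) to 32.8, which is -0.23 on the log2 scale (SE 0.10, adjusted p = 0.0771). Vim was called lower there by edgeR with the replicate block (-0.23, adjusted p = 0.0341). The same held without 48 h sham replicate 1 (-0.28, adjusted p = 0.0368) or UNx replicate 3 (-0.30, adjusted p = 0.0233). With each library left out, the value ran from -0.30 to -0.19 and the adjusted p from 0.0233 to 0.162. With all libraries, 32.9% of genes were called at 48 h. At 72 h shams ran from 23.0 (median 25.4) to 28.1 and UNx libraries from 23.4 (median 26.8) to 30.1, a log2 fold change of 0.07 (95% interval -0.09 to 0.24).

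Spp1 encodes osteopontin, a secreted phosphoprotein made by distal tubule and urothelium in health and by injured proximal tubule. At 24 h its level ran from 579 CPM (median 654) to 708 in shams and from 589 (median 635) to 818 after UNx, a log2 fold change of 0.04 (95% interval -0.13 to 0.22). At 48 h shams ran from 800 (median 941) to 1506 and UNx libraries from 569 (median 667) to 1066. UNx replicate 3 held the 1066 and the other 5 UNx libraries lay below every sham. The log2 fold change was -0.55 (SE 0.17, adjusted p = 0.0267). It was also -0.55 with replicate 6 as the only UNx library, whose spread is taken from the shams. With the profile score as a covariate it was -0.49 (SE 0.35, adjusted p = 0.545). In that fit 0 of 15149 genes were called, so the lost call says nothing particular to Spp1. Only UNx replicate 6 had a score like that of the 48 h shams, so both values rest mainly on this 1 library. They cannot tell nephrectomy and profile apart. The adjusted p passed 0.05 when any of sham replicates 4 and 6 or UNx replicates 1, 2, 4 and 5 was left out, and reached 0.0617 at most. At 72 h shams ran from 769 (median 860) to 1015 CPM and UNx libraries from 688 (median 810) to 914, a log2 fold change of -0.15 (95% interval -0.35 to 0.06).

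The effect of nephrectomy at 48 h was then compared with that at 24 h over all 36 libraries, which differ in shams and in batch. The difference was called for 3 of 10 markers, Vim at -0.63 (SE 0.18, adjusted p = 0.00558), Spp1 at -0.57 (SE 0.19, adjusted p = 0.0172) and Krt20 at -3.24 (SE 1.11, adjusted p = 0.0203), where 37.0% of 15093 genes were called and 17.7% called lower. For Krt20 it was -1.45 without 24 h UNx replicate 4 (adjusted p = 0.249) and -2.20 without 48 h sham replicate 3 (adjusted p = 0.105). For Vim it was -0.42 (adjusted p = 0.00845) without the 24 h library and stayed called, where 34.1% of genes were. None of the 3 was called with the profile score as a covariate (adjusted p from 0.523 to 0.596), where 1 of 15798 genes was. Between 72 and 48 h, and between 72 and 24 h, no marker was called by edgeR, with 1 of 10 under an unadjusted p of 0.05 each time, beside 14.6% and 4.15% of genes called.

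Other genes of the injury program, 45 by name, were called about as often as all genes. Of 42 tested at 24 h, 9 were called higher and 4 lower, which is 31.0% beside 27.3% of all genes, with a median log2 fold change of 0.08 beside 0.01 over all genes. The lowest p belonged to Hmox1, heme oxygenase, which rose by 0.82 (SE 0.09, adjusted p = 6.52e-05), Gdf15, a stress-induced cytokine, which rose by 1.16 (SE 0.18, adjusted p = 0.000462), and S100a11, a calcium-binding protein, which fell by 0.69 (SE 0.12, adjusted p = 0.000850), all on the log2 scale. With the profile score as a covariate, where 38 of 14852 genes were called, Hmox1 stayed called (1.10, adjusted p = 0.0291), Gdf15 kept its value without a call (adjusted p = 0.294) and S100a11 was at -0.21 (adjusted p = 0.891). The score does not overlap between the 24 h groups, so the profile and the nephrectomy cannot be told apart there. At 48 h 5 were called higher and 7 lower, 28.6% beside 32.9% of all genes (median 0.01 beside -0.04), led by Hmox1 at 0.72 (adjusted p = 0.000617), the integrin subunit Itgav at -0.43 (adjusted p = 0.00142) and Gdf15 at 1.04 (adjusted p = 0.00206). They were at 0.38, -0.26 and 0.78 with the profile score and at 0.37, -0.27 and 0.84 with UNx replicate 6 as the only UNx library, fits in which no gene was called. At 72 h only Cdkn1a, the cell-cycle inhibitor p21, was called among the 42, 2.38% beside 1.71% of all genes, at 0.87 (SE 0.18, adjusted p = 0.0323). It was not called without sham replicate 2, 3, 4 or 6 or UNx replicate 5, with adjusted p up to 0.0790, nor with the profile score (0.83, adjusted p = 0.212), where 84 of 15387 genes were called.

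Receptors, regulators and matrix partners of the markers, 24 by name, were counted the same way. Of 23 tested at 24 h, 3 were called higher and 3 lower, which is 26.1% beside 27.3% of all genes, led by the NF-kB inhibitor Nfkbia at -0.39 (adjusted p = 0.00374), the cytokine receptor Lifr at -0.20 (adjusted p = 0.00932) and the integrin subunit Itgb3 at 0.62 (adjusted p = 0.0110). None of these 3 was called with the profile score, at -0.15 for Nfkbia (adjusted p = 0.910), -0.28 for Lifr (adjusted p = 0.509) and 0.66 for Itgb3 (adjusted p = 0.663). At 48 h 2 were called higher and 7 lower, 39.1% beside 32.9% of all genes (median -0.19), led by Itgav, an osteopontin receptor subunit, the Notch ligand Jag1 at -0.62 (adjusted p = 0.00154) and Lrp2, the megalin receptor that takes up filtered proteins, at -0.46 (adjusted p = 0.00561). With the profile score Jag1 was at -0.47 and Lrp2 at -0.34, uncalled like every gene of that fit. At 72 h none of 23 was called by edgeR, with 2 under an unadjusted p of 0.05.

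For the nuclei, the counts of each mouse were added up, both in total and within the 23 classes of the authors' annotation with at least 10 nuclei in every mouse. The class called Uro held most urothelium marker signal, 523 CPM, and the classes named CTAL1, CTAL2 and MTAL led the thick ascending limb list, EC1 and EC2 the endothelium list and Fib the fibroblast list. The thin limb list was led by MPC at 11080 CPM, with 3146 in DTL1 and 1719 in DTL2. ATL at 493 and DTL3-ATL at 452 lay below Uro at 1454, so that list did not set them apart. The smooth muscle and pericyte list stood at 30.8 CPM in Per against 109 in Fib, and did not set Per apart. Class names are the authors' abbreviations and are kept as such. Proximal tubule markers stood at 20853 CPM in PTS1 and 15429 in PTS2, but at 9868 in PTS3, within the 7621 to 11524 CPM of the other 20 classes, so that list did not set PTS3 apart. No gene was called over all nuclei (edgeR, 0 of 19975, with 360 under an unadjusted p of 0.05) or in any of 219721 pairs of gene and class (1529 under 0.05). Of the 79 pairs of marker and class tested, 0 were called, and the unadjusted p was under 0.05 in 3. The replicate number is the labelled batch here, and with it as a block 207 genes were called over all nuclei, 1.04%, none of them a marker.

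**Figure D4:**
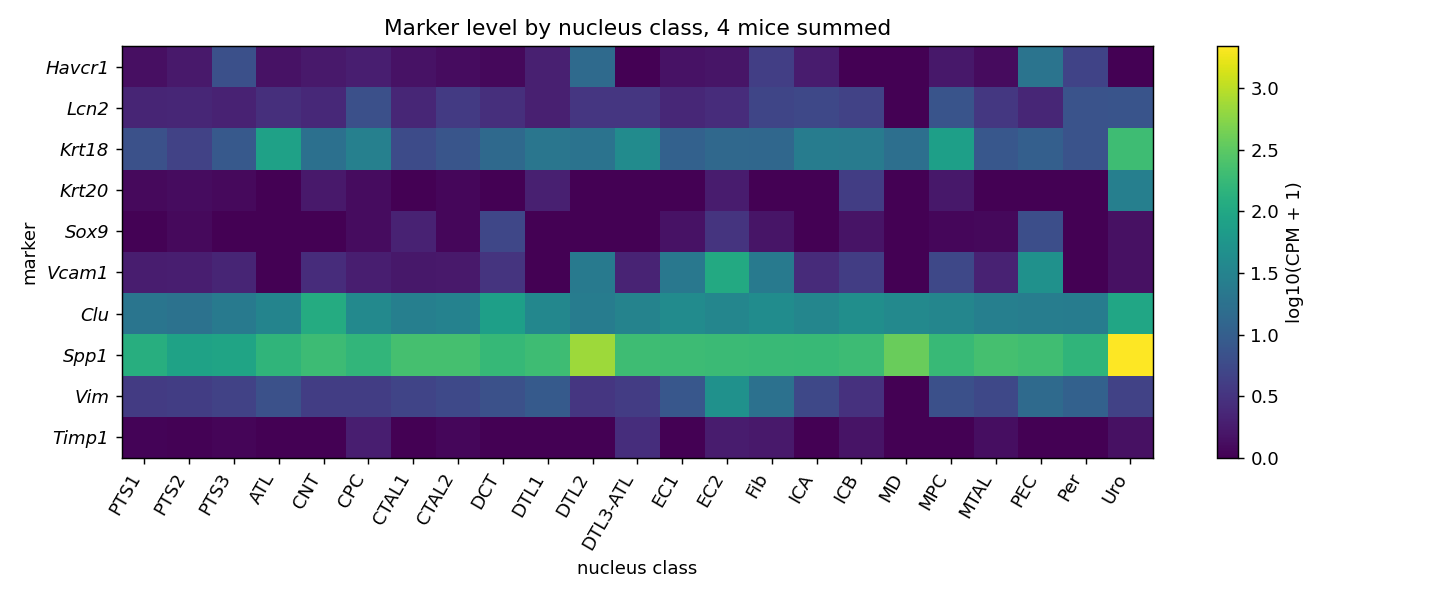
Level of each marker by nucleus class as log10(CPM + 1), with the 4 mice summed, for the 23 classes with at least 10 nuclei in every mouse. Krt18, Krt20 and Spp1 are brightest in Uro, at 202, 26.8 and 2206 CPM, and Vcam1 and Vim in EC2, at 106 and 47.7 CPM.

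Spp1 was the marker with most counts in the nuclei and was lower after nephrectomy in both batches. Over all nuclei it stood at 190 CPM in the sham and 120 in the UNx mouse of batch 3, and at 264 and 173 in those of batch 4. The log2 fold change was -0.55 (SE 0.35, 95% interval -1.51 to 0.41) and -0.57 with the batch block (SE 0.09, adjusted p = 0.0569). The block fit estimates a batch difference as well from 4 mice, so its SE leans heavily on a spread shared with other genes. Leaving out 1 mouse moved the value without the block to -0.83 (sham of batch 3), -0.20 (sham of batch 4), -0.23 (UNx of batch 3) and -0.96 (UNx of batch 4). The UNx mouse was below the sham mouse of its batch in 21 of the 23 classes in both batches, the exceptions being PEC and Per. These classes come from the same 4 mice and are not 23 replicates. Bulk kidney of other mice at the same 24 h did not show this fall, with a log2 fold change of 0.04 (SE 0.08, DESeq2). In bulk, Spp1 was called lower at 48 h only, and the reason for the difference between nuclei and bulk was not tested.

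With the block, which leans on the shared spread here too, Spp1 was called lower in 3 of 23 classes. Of all pairs, 0.726% were called. The log2 fold change of Spp1 was below 0 in all 23. In PTS1, with 101 and 230 CPM in the shams of batches 3 and 4 and 45.7 and 155 in the UNx mice, it was -0.79 (SE 0.16, adjusted p = 0.0499, 1.63% of genes called). In the authors' finer annotation the sham and UNx nuclei of PTS1 sit in different clusters. The cluster named UNx PTS1 held 14 of 959 and 16 of 538 sham nuclei of the class against 756 of 770 and 369 of 430 UNx nuclei, and PTS2 and PTS3 are split alike. In the other PTS1 cluster Spp1 stood at 101 and 227 CPM in shams and at 96.7 and 188 after UNx, the 96.7 from 14 UMIs in 14 nuclei. In UNx PTS1 it stood at 65.0 and 353 CPM in shams, on 8 and 59 UMIs, and at 44.9 and 144 after UNx, so the size of the PTS1 difference depends on which nuclei are compared. In ICA, with 164 and 339 CPM in the shams and 104 and 177 in the UNx mice, it was -0.78 (SE 0.22, adjusted p = 0.0466, 0.797% called). In DTL3-ATL, with 160 and 479 CPM in the shams and 102 and 183 in the UNx mice, it was -0.99 (SE 0.26, adjusted p = 0.0416, 0.433% called). Classes outside the tubule were lower too, with 185 and 260 CPM in the shams and 153 and 195 in the UNx mice in EC1, an endothelial class. Proximal tubule markers were at 7621 CPM or more in every one of these classes, and the part of RNA from outside the nuclei in the Spp1 levels was not tested. In Uro, where Spp1 was highest, the shams of batches 3 and 4 held 6129 and 898 CPM and the UNx mice 3578 and 389, so the batches differed more than the groups (log2 fold change -0.81, SE 1.31).

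**Figure D5:**
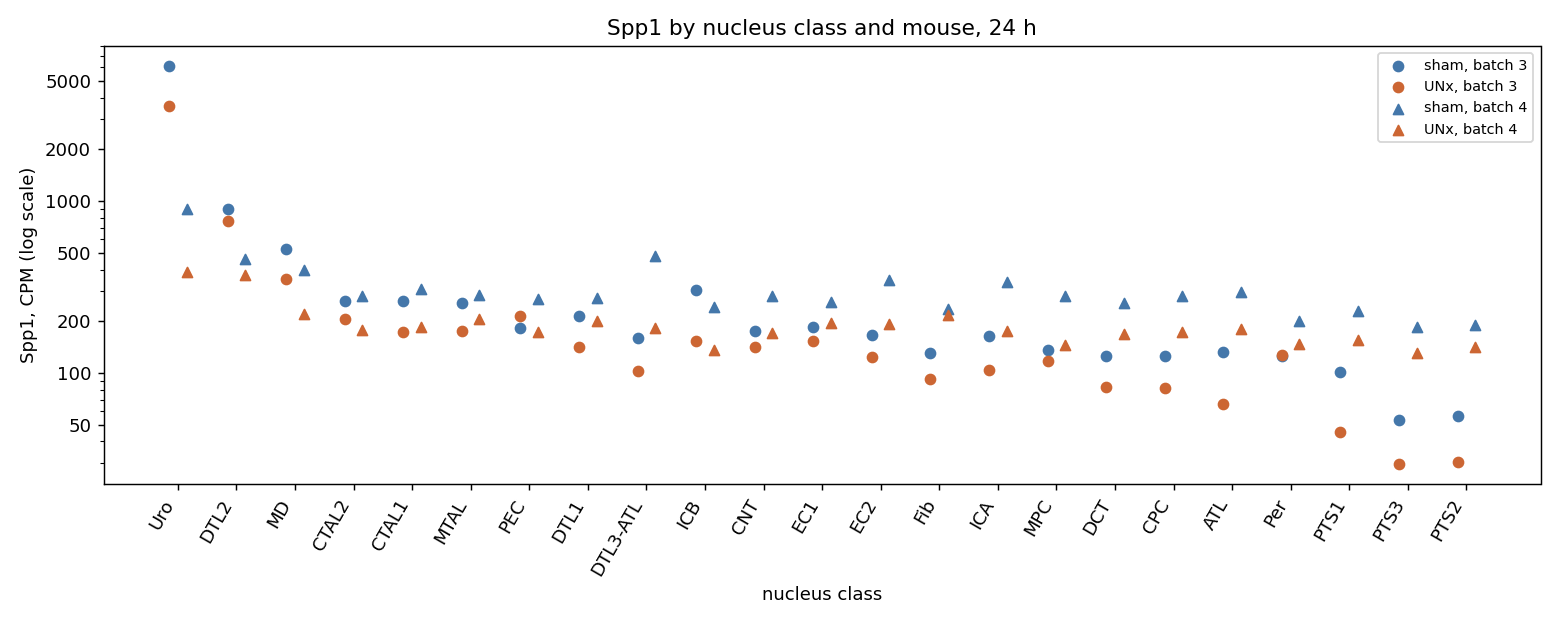
Spp1 (CPM, log axis) in each nucleus class for the 4 mice at 24 h, circles for batch 3 and triangles for batch 4, blue for sham and orange for UNx, with classes ordered by their summed level. In 21 of 23 classes the UNx mouse of each batch lies below its sham, and Uro stands at the left with 389 to 6129 CPM.

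Havcr1 was scarce in the nuclei, with 243 UMIs over these classes. Its highest class was PEC with 18.5 CPM, all from 1 nucleus of each UNx mouse with 6 and 8 UMIs, and the 2 shams held 0 UMIs in 46 PEC nuclei. DTL2 came next with 13.2 CPM, all from 1 nucleus of each UNx mouse with 5 and 6 UMIs, and the shams held 0 UMIs. Havcr1 was too low to test in these classes. Most of its UMIs, 138, were in PTS3. A UMI of Havcr1 was found in 31 of 502 and 8 of 211 sham nuclei of PTS3 and in 33 of 502 and 12 of 456 UNx nuclei. These are shares of 6.18% (exact 95% interval 4.23 to 8.65) and 3.79% (1.65 to 7.33) in shams, and 6.57% (4.57 to 9.11) and 2.63% (1.37 to 4.55) after UNx. In each batch the intervals of sham and UNx overlapped, and they cover counting error in 1 mouse each. In MTAL, a thick ascending limb class that should lack it, the shares were 0.187%, 0%, 0% and 0.565%, at median depths of 6134 to 7250 UMIs against 11105 to 14944 in PTS3. Thinned to 4000 UMIs per nucleus, the PTS3 shares were 1.62% and 0.474% in shams and 2.00% and 0.883% after UNx, with 0 to 8 nuclei left out per mouse. A single sham nucleus of batch 3 held 28 of that mouse's 66 UMIs.

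Vcam1 was highest in EC2, a second endothelial class, with 148 and 46.3 CPM in the shams and 138 and 39.2 in the UNx mice (log2 fold change -0.13, SE 0.80). In PEC it was found in 1 of 31 and 2 of 15 sham nuclei and in 8 of 29 and 6 of 21 UNx nuclei, shares of 3.23%, 13.3%, 27.6% and 28.6%. In MTAL the shares were 0.375%, 1.55%, 0.367% and 1.13%, at median depths of 6134 to 7250 UMIs against 6085 to 8077 in PEC. Its summed counts of 1 and 3 UMIs in the shams and 23 and 9 in the UNx mice gave a fold change of 2.70 on the log2 scale (SE 0.95, unadjusted p = 0.0250, adjusted p = 0.999). A single nucleus held 13 of the 23 UMIs of 1 UNx mouse. Thinned to 4000 UMIs per nucleus, the PEC shares of Vcam1 were 0% and 13.3% in shams and 18.5% and 20.0% after UNx. In PEC, Havcr1 thus rested on 1 nucleus of each UNx mouse, while Vcam1 was spread over more nuclei of a small class.

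Krt18 was highest in Uro with 201 and 178 CPM in the shams and 231 and 208 in the UNx mice (log2 fold change 0.24, SE 0.28). Of the 23 classes, it was higher after UNx in both batches in 8 and lower in both in 3. Among the 8 was DTL1, with 2 and 1 UMIs in the shams and 10 and 7 in the UNx mice, too few to test. Among the 3 was MPC, with 116 and 58.6 CPM in the shams and 97.1 and 47.8 in the UNx mice. Krt20 was found in Uro too, in 2 of 57 and 1 of 52 sham nuclei, 0 of 57 nuclei of the UNx mouse of batch 3 and 15 of 75 of the UNx mouse of batch 4, so most of its UMIs came from 1 UNx mouse. In MTAL no nucleus of any mouse held a Krt20 UMI, at median depths of 6134 to 7250 UMIs against 7519 to 10311 in Uro. Krt20 was not confined to Uro. In PTS2 the shams held 0 and 1 UMIs and the UNx mice 0 and 7, and ICB held 6, all in the UNx mouse of batch 4. In PTS1 the shams held 3 and 1 and the UNx mice 2 and 1. Clu was highest in CNT, with 97.9 and 104 CPM in the shams and 119 and 129 in the UNx mice (log2 fold change 0.35, SE 0.26, 95% interval -0.34 to 1.05). Over all nuclei Clu differed more between batches than between groups, at 14.9 and 11.8 CPM in the sham and UNx mice of batch 3 and 51.8 and 61.5 in those of batch 4.

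Vim was highest in EC2 with 32.4 and 50.9 CPM in shams and 31.2 and 96.7 after UNx (log2 fold change 0.68, SE 0.69). Lcn2 was highest in MPC, with 5 and 6 UMIs in the shams and 24 and 6 in the UNx mice. Sox9 had 4 UMIs in its highest class, PEC, all in 1 UNx mouse, and 44 UMIs in DCT, 9 and 8 in the shams and 18 and 9 in the UNx mice. Timp1 had 27 UMIs in all and 3 in its highest class, so its levels by class were at or near the limit of detection.

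Proximal tubule nuclei with more than 1 marker were rare in every mouse. Of 6 markers (Havcr1, Vcam1, Krt20, Sox9, Lcn2 and Timp1), 2 or more were found together in 2 of 2120 and 3 of 1073 sham nuclei of PTS1, PTS2 and PTS3 and in 1 of 1971 and 2 of 1292 UNx nuclei. Over the 4 mice this was 8 of 6456 nuclei, 0.124%. Another 267 held 1 of the 6 markers and 6181 held none, so sparse detection limits this count. With 1 to 3 such nuclei per mouse and 2 mice per group, no test between the groups was made.

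The gene whose level over the 23 classes was most like that of each marker was, for those with over 800 UMIs, Elf3 for Krt18 (Pearson r of log2(CPM + 1) 0.90), Sparc for Vcam1 (0.88), Nup93 for Clu (0.83), Apc for Spp1 (0.83) and Fxyd5 for Vim (0.86). For the sparser markers it was Rasl12 for Havcr1 (0.81), Tbx3 for Lcn2 (0.85), Ankfn1 for Krt20 (0.96), Antxr1 for Sox9 (0.69) and Kat7 for Timp1 (0.63). The 23 points share 4 libraries and differ in depth, and these values describe the classes only.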

How the data were processed

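The bulk table holds estimated counts per gene, which the authors made with Salmon 1.5.0 on GRCm39 after FastQC 0.11.8, per the submitters' processing notes; the nucleus table holds estimated UMI counts made with alevin on mm10, with the authors' deposited classes. Nucleus filters, doublet removal and other settings: not given in the sources used here. Doublets were not searched for. Of the deposited count values, 32.4% in bulk and 13.8% of those above 0 in nuclei were not whole, and all were rounded.

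Genes were filtered with filterByExpr, scaled by TMM and tested with edgeR 4.0.16 (quasi-likelihood, Benjamini-Hochberg, threshold 0.05) over all genes, in R 4.3.3. Each bulk time was fitted on its 12 libraries, and differences between times on all 36. Nuclei were summed per mouse and class for the 23 of 30 classes with 10 or more nuclei in each mouse. The scripts were tested on simulated data. Same-numbered nucleus samples share a labelled batch, and their deviations correlated at 0.869, so values with that number as a block stand beside the results. Intervals of shares are Clopper-Pearson and cover counting error only. Alternatives included DESeq2 1.42.0, no filter, the profile score, the block and leaving out each library.

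All 10 markers are named. From the other lists the 3 called genes with the lowest p at each time are named, and in nuclei the class where a marker is highest. The members and lists were chosen with earlier results of these data known.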

Additional observations from a re-analysis of the deposited data

Results flagged for a closer look

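Single libraries stood apart from the other 5 of their group by Dixon's test in 18 of 60 groups of marker, treatment and time. Chance gives about 1 in 20 for independent groups of normally distributed values. The groups are not independent here, since some libraries recur across markers, and all 18 flags were on the high side. For Havcr1 these were 48 h sham replicate 6 at 25.0 CPM, 48 h UNx replicate 3 at 9.44 CPM and 72 h UNx replicate 1 at 6.78 CPM. For Lcn2 they were 48 h sham replicate 6 at 16.6 CPM and 72 h sham replicate 5 at 4.91 CPM. For Krt18 they were 24 h UNx replicate 4 at 24.2 CPM, 72 h sham replicate 5 at 36.5 CPM and 72 h UNx replicate 6 at 38.8 CPM. For Krt20 they were 24 h UNx replicate 4 at 3.49 CPM, 48 h sham replicate 3 at 2.35 CPM and 48 h UNx replicate 5 at 0.765 CPM.

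Sox9 stood apart in 24 h sham replicate 5 at 1.31 CPM, and Spp1 in 48 h UNx replicate 3 at 1066 CPM. Timp1 did so in 48 h sham replicate 6 at 1.74 CPM and 72 h UNx replicate 1 at 1.56 CPM. Vcam1 did so in 48 h sham replicate 6 at 15.5 CPM and 24 h UNx replicate 3 at 8.16 CPM, and Vim in 24 h UNx replicate 4 at 46.2 CPM.

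The effect of nephrectomy differed between 48 and 24 h, by the test of that difference in edgeR, for Vim (-0.63), Spp1 (-0.57) and Krt20 (-3.24) on the log2 scale. The 24 h libraries are a batch of their own, so time and batch cannot be told apart there.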

How the results depend on the processing

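The count of markers called in bulk was 0 at 24 h with all libraries, 1 by the DESeq2 Wald test and 1 in a fit of all 36 libraries, and 0 to 1 with each library left out. At 48 h it was 1, and 2 with the replicate block, 0 with the profile score, 0 without UNx replicates 1 to 5 (fits that called 0 of 15149 and 0 of 15605 genes) and 0 to 3 with each library left out. Differences in effect between times were called for 3 markers, for 0 with the profile score (1 of 15798 genes called) and for 2 to 4 with each library left out. Pairs of marker and class in nuclei were called 0 times, 1 time with no filter and 3 times with the replicate block. At 72 h and over all nuclei no alternative that was run called a marker. Same-numbered bulk libraries did not deviate together (r from -0.31 to 0.09), so the numbers do not pair them.

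Directions turned with the profile score for Lcn2 at 24 h (-0.068), Sox9 (-0.49) and Clu (-0.13) at 48 h, and Krt18 (0.091) and Krt20 (0.020) at 72 h. They turned without UNx replicates 1 to 5 for Sox9 (-0.67) and Clu (-0.22) at 48 h, and with the replicate block for Havcr1 (0.40) and Lcn2 (0.13) at 48 h and Vim over all nuclei (-0.14). With each library left out, ranges that crossed 0 were -0.044 to 0.43 for Krt18, -0.023 to 0.15 for Clu and -0.026 to 0.074 for Spp1 at 24 h, -0.81 to 1.01 for Havcr1 and -0.45 to 0.47 for Lcn2 at 48 h, and -0.81 to 0.0027 for Krt18 and -0.070 to 0.038 for Clu at 72 h. Over all nuclei they were -0.18 to 1.13 for Havcr1, -0.45 to 0.76 for Lcn2, -0.52 to 0.60 for Krt18, -2.39 to 3.53 for Krt20, -0.38 to 0.15 for Vcam1, -1.57 to 1.53 for Clu and -1.52 to 0.96 for Vim. In single classes they were -1.20 to 0.94 for Vcam1 in EC2, -3.08 to 1.14 for Spp1 in Uro and -0.46 to 1.31 for Vim in EC2. Leaving out a nucleus sample leaves 1 mouse in its group, assumed to vary like the others. The cause of these changes was not tested. With 2 mice per group, nuclei limit every class comparison, and markers under 1 CPM are limited by depth.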
